A study of Mus musculus with 12 samples.

Results

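A set of 9 genes that restrain MAP kinase signaling was described in OTII cells transferred into WT or Il6-/- mice: the dual-specificity phosphatases Dusp1, Dusp2, Dusp4, Dusp5, Dusp6, Dusp10 and Dusp16, and the Sprouty genes Spry1 and Spry2. They were chosen by gene symbol as feedback regulators of the ERK pathway, and all 9 were found among the 40840 symbols counted and among the 13570 genes that had enough reads to be tested. OTII cells are CD4+ T cells whose transgenic antigen receptor recognizes a peptide of OVA. They were transferred into naive congenic recipients, which then received house dust mite (HDM) extract of high endotoxin content and LPS-free EndoFit ovalbumin (OVA) i.n. The donor cells were sorted from the mediastinal lymph nodes (mLNs) for RNA-seq. The 4 groups, with 3 libraries each, were WT recipients on Day 3, Il6-/- recipients on Day 3, WT recipients on Day 5 and Il6-/- recipients on Day 5. All 4 groups received the same sensitization, and no group without HDM or without LPS was analysed here. WT recipients were C57BL/6 J mice, and Il6-/- recipients lacked Il6 in every cell of the host but not in the donor OTII cells, so that Il6 reads, at 0 to 5 counts per library, do not check the labels. The labels name blood as the source and leave out LPS, and the account of the study was followed for both. The ages of the animals, and whether a library came from 1 animal or from several, were not given in the sources used here, so p-values measure the spread between these samples only.

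In T cells, engagement of the antigen receptor activates Ras and then the kinases RAF, MEK and ERK, and ERK switches on immediate early genes such as the EGR and FOS families. Dual-specificity phosphatases remove phosphate from both the threonine and the tyrosine of the activation loop of MAP kinases, and many of them are transcribed in response to the kinase that they turn off. Dusp1, Dusp2, Dusp4 and Dusp5 encode inducible nuclear enzymes, of which DUSP5 acts on ERK alone. DUSP6 is the cytoplasmic phosphatase of ERK. DUSP10 and DUSP16 act on JNK and p38 rather than on ERK, so that the name ERK feedback does not cover the substrates of these enzymes. Sprouty proteins act upstream, where they dampen the signal from receptors to Ras and RAF.

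The gene counts of a library summed to 16125947 to 26111657 reads. Levels are given as CPM, the count of a gene scaled to a fixed library size, after TMM scaling, with the mean ± SD of 3 libraries. The 10 genes listed as defining T cells, among them Cd3e, Cd4 and Trac, were detected in every library, with a summed level of 7932 to 14934 CPM. Markers of other cells were present at lower levels. The 11 myeloid and dendritic cell markers summed to 17.8 to 53.1 CPM, the 8 NK and CD8 T cell markers to 62.8 to 114 CPM and the 6 lung epithelial markers to 0.6 to 22.5 CPM. The 8 B cell markers summed to 458 to 700.5 CPM, of which Ighm alone gave 426 to 676 CPM, whereas the defining markers Ms4a1 and Ebf1 lay between 0 and 0.31 CPM and Pax5 between 0 and 2.59 CPM. Of the NK and CD8 sum, Cd8b1 gave 56.3 to 84.2 CPM, whereas Cd8a was at 1.70 CPM or less. Some of these sums separated the genotypes. On Day 3, the T cell sum was 8506 to 9815 CPM in WT and 7932 to 8093 in Il6-/- recipients, and the NK and CD8 sum 62.8 to 75.4 against 83.9 to 114 CPM. On Day 5, the T cell sum was 14814 to 14934 against 12929 to 14173 CPM and the B cell sum 458 to 512 against 522 to 602 CPM. Their part in the genotype differences given below was not tested. Itgax was at 0 in all 6 libraries of Day 3, and Ncr1 had at most 1 count in any library. In bulk RNA, fewer cells that express a gene and less RNA per cell cannot be told apart.

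All 9 genes were matched to the GENCODE vM39 annotation of GRCm39. Dusp1 lies on chromosome 17 (26724564 to 26781102, minus strand), Dusp2 on chromosome 2 (127177957 to 127180296, plus strand), Dusp4 on chromosome 8 (35274442 to 35287048, plus strand) and Dusp5 on chromosome 19 (53517532 to 53530862, plus strand). Dusp6 lies on chromosome 10 (99086564 to 99103361, plus strand), Dusp10 on chromosome 1 (183745499 to 183807842, plus strand) and Dusp16 on chromosome 6 (134692431 to 134784241, minus strand). Spry1 lies on chromosome 3 (37693897 to 37698755, plus strand) and Spry2 on chromosome 14 (106128766 to 106136446, minus strand). Because reads were counted without regard to strand, reads where exons of different genes overlap could not be assigned with certainty. The exons of Dusp1 shared 38 bases with those of Ergic1, a gene with 1415 to 2581 counts per library, and those of Dusp10 shared 808 bases with 1700056E22Rik, at 32 to 111 counts. The exons of Dusp2 shared 64 bases with Gm46762, at 28 to 156 counts, against 762 to 2268 counts of Dusp2 itself. The counted partners of Dusp6 and Dusp16, Gm34921 and Gm36328, had at most 6 and 1 counts. Exons of genes that were not counted overlapped Dusp2 by 615 bases (Gm74572, 28.9% of its exons) and Dusp6 by 685 (Gm56965, 20.2%). Such exons also overlapped Dusp5 by 555 bases (Gm50394), Spry1 by 909 (Gm42922), Spry2 by 564 (Gm62623) and Dusp10 by 46 and 116 (Gm70448 and Gm70446). Reads from these genes could not be told apart from those of the member. No annotated exon of another gene overlapped Dusp4.

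The promoters of Dusp1, Dusp2 and Dusp5 held different motifs, and that of Dusp6, which rose from Day 3 to Day 5 in both genotypes, held none of those searched, so these 4 are shown. The 250 bases shown lie before a RefSeq start of each gene (GRCm38.p6), and each was found once in GRCm39. They lie at chr17:26727447-26727696 (minus strand) for Dusp1, chr2:127177829-127178078 (plus strand) for Dusp2, chr19:53517326-53517575 (plus strand) for Dusp5 and chr10:99098843-99099092 (plus strand) for Dusp6. These RefSeq starts lie inside the GENCODE ranges given above, and other starts of these genes were not searched. Capitals mark matches to the motifs that were searched, in the window of 250 bases before and 50 bases after the start.
Dusp1: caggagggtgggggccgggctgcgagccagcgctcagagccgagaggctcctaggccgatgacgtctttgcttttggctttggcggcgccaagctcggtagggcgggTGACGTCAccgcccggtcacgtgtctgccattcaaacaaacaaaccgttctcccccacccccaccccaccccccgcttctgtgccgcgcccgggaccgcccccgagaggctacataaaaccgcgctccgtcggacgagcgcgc
Dusp2: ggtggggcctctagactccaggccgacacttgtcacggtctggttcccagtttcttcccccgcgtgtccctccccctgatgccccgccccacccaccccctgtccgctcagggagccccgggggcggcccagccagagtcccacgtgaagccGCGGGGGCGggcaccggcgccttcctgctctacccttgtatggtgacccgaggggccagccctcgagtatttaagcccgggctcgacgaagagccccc
Dusp5: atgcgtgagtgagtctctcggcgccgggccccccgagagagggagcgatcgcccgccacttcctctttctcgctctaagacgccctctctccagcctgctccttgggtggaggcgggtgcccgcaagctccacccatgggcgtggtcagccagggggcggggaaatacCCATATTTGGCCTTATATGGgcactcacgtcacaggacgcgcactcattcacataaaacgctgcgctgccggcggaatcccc
Dusp6: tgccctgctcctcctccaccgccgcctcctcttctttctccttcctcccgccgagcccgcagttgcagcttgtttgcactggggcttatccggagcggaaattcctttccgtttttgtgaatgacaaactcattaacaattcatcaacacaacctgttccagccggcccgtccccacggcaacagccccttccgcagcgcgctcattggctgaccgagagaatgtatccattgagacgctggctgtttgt
The capitals are a cAMP response element (TGACGTCA) in Dusp1 at bases -143 to -136, an EGR motif (GCGGGGGCG) in Dusp2 at -98 to -90, and adjoining CArG boxes, the motif of serum response factor, in Dusp5 at -82 to -73 (CCATATTTGG) and -72 to -63 (CCTTATATGG).

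The 7 motifs were searched on both strands: AP-1 (TGANTCA), the cAMP response element (TGACGTCA), STAT (TTCNNNGAA), EGR (GCGNGGGCG), ETS (CCGGAAG), the CArG box and the TATA box (TATAAA). The AP-1 and cAMP response element letters cannot match the same bases. Windows were available for 8 of the 9 genes, and Dusp4 had no entry. Of 32851 promoter windows of the same length, 1.79% held the cAMP response element, 5.55% the EGR motif and 1.63% a CArG box. AP-1 was held by 7.81%, STAT by 8.30%, ETS by 8.86% and the TATA box by 13.6%. Dusp16 held an EGR match on the reverse strand at -138 to -130. None of the 7 motifs was found in the windows of Dusp6, Dusp10, Spry1 or Spry2. These are matches of letters, and binding was not measured.

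**Figure D1:**
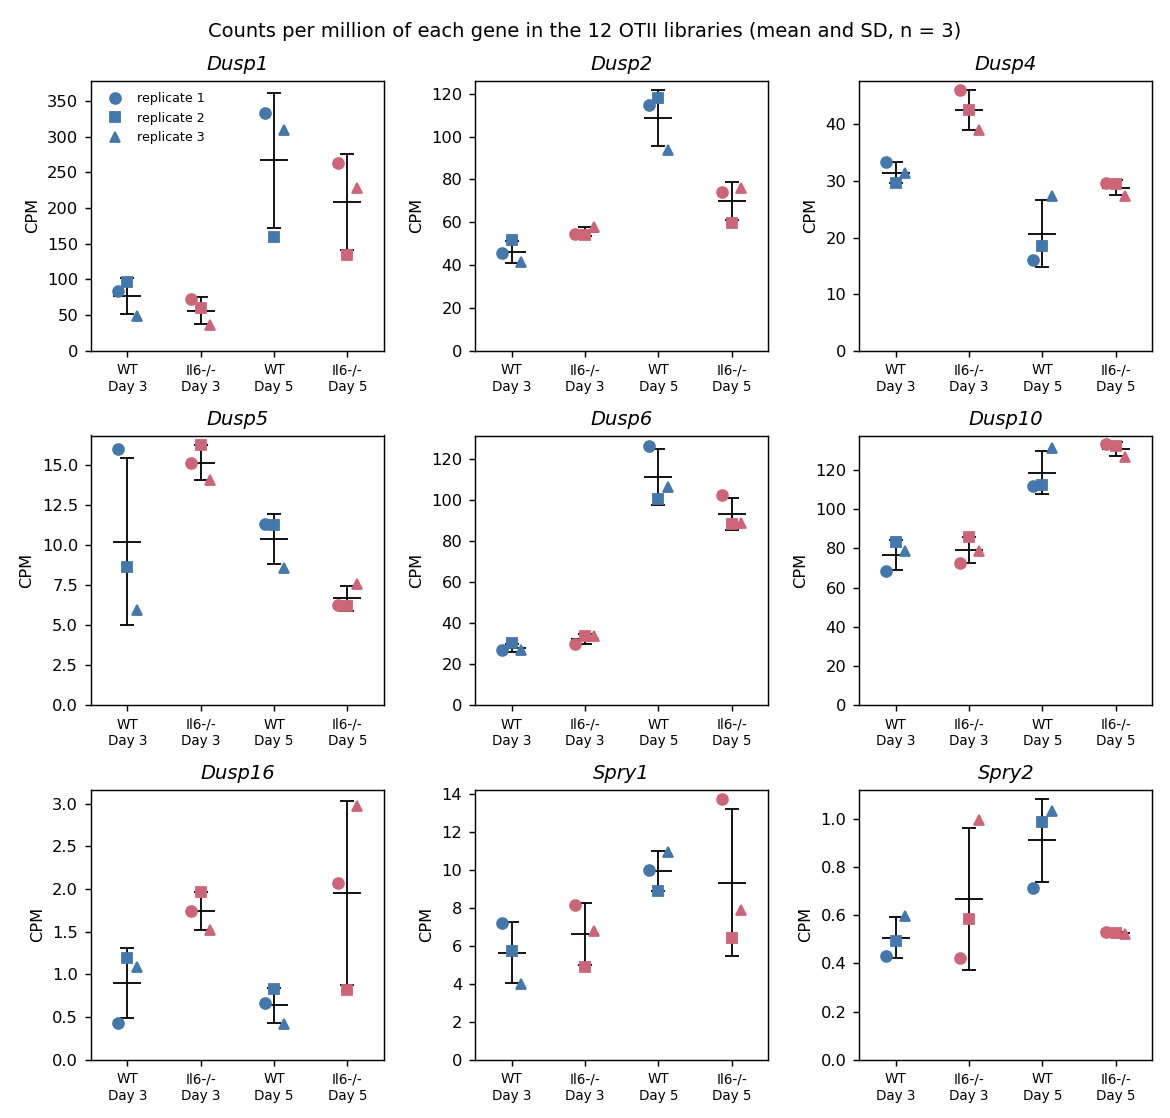
Level of each of the 9 genes in the 12 libraries, in CPM on a linear axis from 0, with blue for WT and red for Il6-/- recipients and a marker shape per replicate number. Horizontal lines are the mean and SD of 3 libraries. Dusp2 is higher in Il6-/- than in WT on Day 3 and lower on Day 5, whereas Dusp6 and Dusp1 are higher on Day 5 than on Day 3 in both genotypes.

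Recipient genotype was compared first, within each day, because the study asks how priming without IL-6 changes the OTII cells. On Day 3, none of the 9 genes passed an FDR of 0.05 in edgeR's quasi-likelihood test, adjusted over all genes tested, against 13.7% of all genes. Dusp2 was the member with an unadjusted p of 0.037, Dusp4 that with 0.011, and the other 7 had an unadjusted p over 0.05. In DESeq2, 1 member, Dusp4, passed the FDR. On Day 5, only Dusp2 passed in this fit, which has no block for the replicate number, and 4.61% of all genes did (3.35% lower). With such a block more members passed, as given below. WT and Il6-/- libraries were fully separated for 3 of the 9 genes on Day 3 (Dusp2, Dusp4 and Dusp16, all higher in Il6-/-) and for 3 on Day 5 (Dusp2, Dusp5 and Spry2, all lower), against 36.2% and 19.6% of all genes (20.5% higher on Day 3 and 11% lower on Day 5). The median log2 fold change (log2FC) of Il6-/- relative to WT over the 9 genes was 0.26 on Day 3 and −0.25 on Day 5, and over all genes tested it was 0.01 on both days. For 1 gene, an exact permutation test of 3 against 3 libraries (two-sided) cannot give a p below 0.1.

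**Figure D2:**
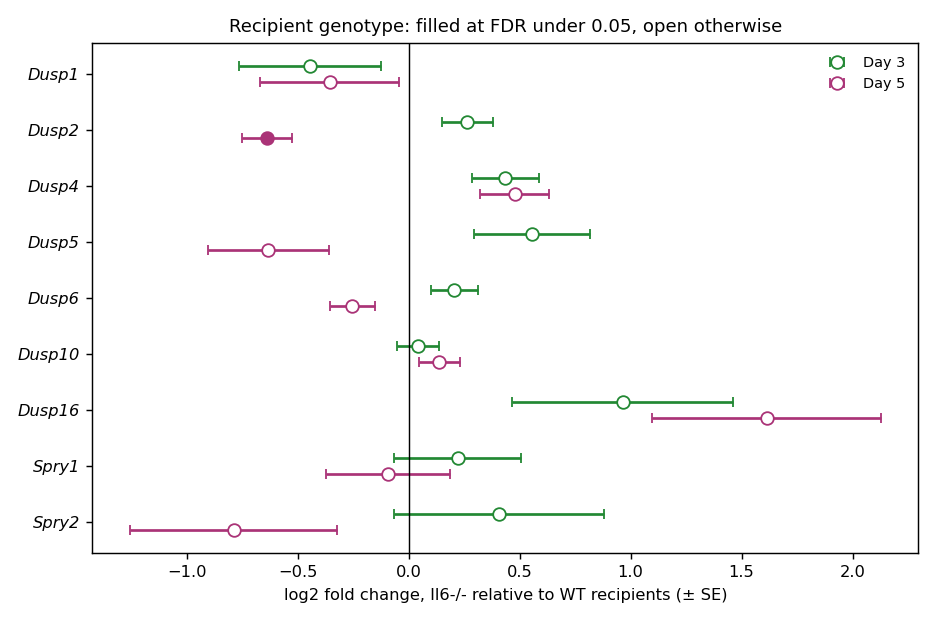
log2 fold change of Il6-/- relative to WT recipients for each gene on Day 3 (green) and Day 5 (purple), with bars of 1 SE from the edgeR fit of 12 libraries. The filled point is the one that passed an FDR of 0.05, Dusp2 on Day 5, and Dusp2, Dusp5, Dusp6, Spry1 and Spry2 lie right of 0 on Day 3 and left of 0 on Day 5.

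Dusp2, which encodes the nuclear phosphatase PAC-1 of activated lymphocytes, was lower on Day 5 in OTII cells primed in Il6-/- recipients. Its level was 115, 118 and 93.9 CPM in the WT libraries and 74.1, 59.5 and 76.0 CPM in the Il6-/- libraries, and each Il6-/- library lay below each WT library. The means were 109 ± 13.05 and 69.9 ± 9.02 CPM (log2FC −0.64, SE 0.11, FDR = 0.0052), and the gene ranked 129 of 13570 by p. On Day 3 it was 45.6, 51.7 and 41.4 CPM in WT and 54.8, 53.9 and 57.9 in Il6-/- libraries. Here each Il6-/- library lay above each WT library, but the difference did not pass (log2FC 0.26, SE 0.12, FDR = 0.15). Whether the genotype difference changed from one day to the next was tested by an interaction term, (Il6-/- minus WT on Day 5) minus (Il6-/- minus WT on Day 3). It was −0.90 on the log2 scale for Dusp2 (SE 0.16, FDR = 0.0088), and 4.92% of all genes passed the interaction (3.12% below 0). The other 8 genes did not pass in this fit, and Dusp10, at 0.10 (SE 0.13), Spry1, at −0.31 (SE 0.40), Dusp16, at 0.65 (SE 0.71), and Spry2, at −1.20 (SE 0.66), had an FDR of 0.33 or more. The Day 5 difference of Dusp2 passed in all 12 fits that left out 1 library, with an FDR of at most 0.033, and the interaction in all 12, with an FDR of at most 0.030.

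Dusp4, a nuclear phosphatase of ERK, JNK and p38, was measured at a higher mean in Il6-/- recipients on both days. It did not pass the threshold in the edgeR fit without a block. On Day 3 it was 33.3, 29.6 and 31.4 CPM in WT and 46.1, 42.6 and 39.1 in Il6-/- libraries, which did not overlap (log2FC 0.44, SE 0.15, FDR = 0.068). On Day 5 it was 16.1, 18.5 and 27.4 CPM in WT and 29.6, 29.5 and 27.3 in Il6-/- libraries (log2FC 0.48, SE 0.15, FDR = 0.092). Replicate 3 of WT on Day 5 lay level with the lowest Il6-/- library, and without it the Day 5 difference was 0.74 (FDR = 0.0016) and that of Day 3, through the shared estimate of the spread, had an FDR of 0.010. Without replicate 1 of WT on Day 5, the Day 3 difference had an FDR of 0.035. Of the 12 fits without 1 library, the Day 3 difference passed in these 2 and the Day 5 difference in 1. Of the 10 other settings, the Day 3 difference passed in 6 (FDR 0.0076 to 0.12 over the 10). These were DESeq2, limma-voom, the GC offset, the replicate block, the groups compared alone and no filter on low counts. The Day 5 difference passed in 3, DESeq2, the block and no filter (FDR 0.0078 to 0.25 over the 10). The interaction was 0.04 (SE 0.21, FDR = 0.94).

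Dusp5, the nuclear phosphatase of ERK alone, was spread widely in WT recipients on Day 3, at 16.03, 8.65 and 5.97 CPM, against 15.1, 16.3 and 14.1 CPM in the Il6-/- group (log2FC 0.56, SE 0.26, FDR = 0.19). On Day 5 it was 11.3, 11.3 and 8.56 CPM in WT and 6.25, 6.21 and 7.599 in Il6-/- libraries, which did not overlap (log2FC −0.63, SE 0.27, FDR = 0.21). The interaction was −1.19 (SE 0.38, FDR = 0.085), and −1.29 (FDR = 0.022) with the replicate number as a block. Replicate 1 of WT on Day 3 stood apart from the other WT libraries of that day. Without it, the Day 3 difference was 1.05 (FDR = 0.0051) and the interaction −1.68 (FDR = 0.0051). Neither passed in the other 11 fits without 1 library.

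Dusp6, the cytoplasmic phosphatase of ERK, was 26.9, 30.4 and 26.7 CPM in WT and 29.6, 33.6 and 33.6 in Il6-/- libraries on Day 3 (log2FC 0.21, SE 0.11, FDR = 0.23). On Day 5 it was 126, 100 and 107 CPM in WT and 102, 88.2 and 88.8 in Il6-/- libraries (log2FC −0.25, SE 0.10, FDR = 0.17). The genotypes overlapped on both days, and the interaction was −0.46 (SE 0.15, FDR = 0.086). Dusp2, Dusp5 and Dusp6 thus had the same order of means, Il6-/- above WT on Day 3 and below it on Day 5. Spry1 and Spry2 shared this order. In the edgeR fit without a block, over all 12 libraries, only Dusp2 passed the test of the difference between days. With the block, the interaction of Dusp6 was −0.46 (FDR = 0.018).

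Dusp1, an immediate early gene whose product acts on ERK, JNK and p38, varied between the libraries of each group by 32.1 to 35.4% of the mean (SD as a percentage). It was 83.7, 96.9 and 48.4 CPM in WT and 72.6, 60.1 and 36.1 in Il6-/- libraries on Day 3, and 333, 159 and 309 CPM against 263, 134 and 228 CPM on Day 5. The replicate with the lowest level was replicate 3 in both genotypes on Day 3 and replicate 2 in both on Day 5. The Il6-/- library lay below the WT library of the same number in 3 of 3 pairs on each day. Without regard to the numbers the genotypes overlapped, and the log2FC was −0.44 on Day 3 (SE 0.32, FDR = 0.42) and −0.36 on Day 5 (SE 0.31, FDR = 0.59).

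On Day 5, same-numbered libraries of WT and Il6-/- recipients deviated from their group means together, with a correlation across genes of 0.24, 0.21 and 0.13 for numbers 1, 2 and 3. With the replicate number as a block, 4 of the 9 genes passed on Day 5 in place of 1. Dusp1 then had a log2FC of −0.34 (FDR = 0.015), Dusp4 of 0.51 (FDR = 0.034) and Dusp6 of −0.25 (FDR = 0.048), and Dusp2 kept −0.64 (FDR = 0.0027). The block also raised the number of all genes that passed on Day 5 from 626 to 1592. On Day 3 the same-numbered libraries had correlations of 0.03, 0.06 and 0.03. Whether the numbers mark pairs on either day was not given in the labels.

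Jun and Fos, which are also immediate early genes, moved between the libraries along with Dusp1. Jun, which encodes a subunit of AP-1, was 105, 70.1 and 42.1 CPM in WT and 42.0, 34.8 and 21.3 in Il6-/- libraries on Day 3, and 181, 109 and 135 CPM against 176, 84.1 and 158 CPM on Day 5. Fos, its partner in AP-1, was 35.5, 31.0 and 18.6 CPM in WT and 20.0, 15.8 and 12.1 in Il6-/- libraries on Day 3, and 194, 110 and 170 CPM against 188, 76.1 and 169 CPM on Day 5. As for Dusp1, the lowest library of each group was replicate 3 on Day 3 and replicate 2 on Day 5. The 12 genes listed for cell handling and heat shock, which hold Zfp36 and several chaperones, summed to 3617 to 4856 CPM in WT and 4693 to 5629 CPM in Il6-/- on Day 3, and to 3073 to 3781 CPM against 3568 to 4793 CPM on Day 5. The part of these genes in the spread of Dusp1 was not tested. Jun and Fos were chosen for this comparison after their values were seen. On Day 3 the lowest library of Zfp36 was not replicate 3 in either genotype.

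**Figure D3:**
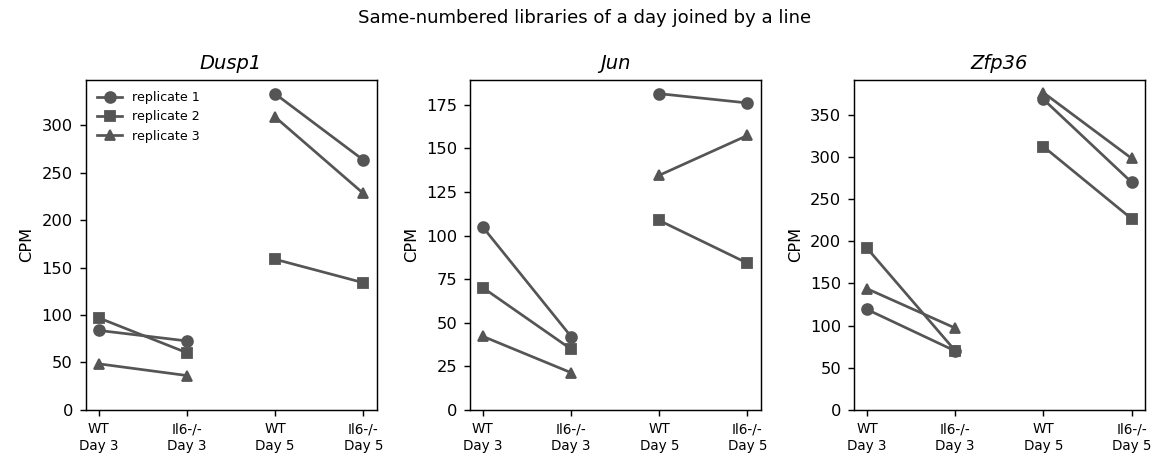
Level in CPM, on linear axes from 0, of Dusp1, Jun and Zfp36 in the 12 libraries, with a line between the WT and Il6-/- libraries that share a replicate number and day. The Dusp1 line falls for all 6 pairs, and on Day 5 replicate 2 is lowest in both genotypes for all 3 genes. On Day 3 replicate 3 is lowest in both genotypes for Dusp1 and Jun, but in neither for Zfp36.

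Dusp10 and Dusp16, phosphatases of JNK and p38, did not pass in either genotype comparison. Dusp10 was 68.4 to 83.4 CPM in WT and 72.5 to 85.8 in Il6-/- recipients on Day 3 (log2FC 0.04, SE 0.09, FDR = 0.83), and 112 to 132 CPM against 127 to 133 CPM on Day 5 (log2FC 0.14, SE 0.09, FDR = 0.45). The narrow SE makes it the gene whose difference was bounded most tightly. Dusp16 had only 9 to 57 counts per library. It was 0.43, 1.19 and 1.09 CPM in WT and 1.74, 1.962 and 1.52 in Il6-/- libraries on Day 3 (log2FC 0.96, SE 0.50, FDR = 0.24), and 0.66, 0.83 and 0.42 CPM against 2.06, 0.82 and 2.97 CPM on Day 5 (log2FC 1.61, SE 0.51, FDR = 0.089). The Day 5 difference of Dusp16 passed without the filter on low counts (FDR = 0.031) and in DESeq2 (FDR = 0.032), and not in the other 8 settings. For some other genes, FDRs without the filter were far lower than in the main fit, as given below.

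The Sprouty genes were expressed at low levels and did not pass in either genotype comparison. Spry1 was 7.18, 5.74 and 3.96 CPM in WT and 8.13, 4.88 and 6.78 in Il6-/- libraries on Day 3 (log2FC 0.22, SE 0.29, FDR = 0.69). On Day 5 it was 9.98, 8.88 and 11.0 CPM against 13.7, 6.39 and 7.86 CPM (log2FC −0.09, SE 0.28, FDR = 0.90). Spry2 had 8 to 22 counts per library, or 0.42 to 1.03 CPM. On Day 5 its WT libraries, at 0.71, 0.99 and 1.03 CPM, lay above the Il6-/- libraries, at 0.53, 0.53 and 0.52 CPM, but with these counts the difference did not pass (log2FC −0.79, SE 0.47, FDR = 0.38).

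The second question was how the genes change between the days. From Day 3 to Day 5 in WT recipients, 6 of the 9 genes passed an FDR of 0.05, 5 higher on Day 5 and 1 lower, against 56.7% of all genes (29.5% higher and 27.1% lower). In Il6-/- recipients 6 passed, 4 higher and 2 lower, against 60.5% of all genes (30.4% higher and 30.1% lower). At least a 2-fold change was reached by 3 of the 9 in each, against 22.1% and 25.9%. The share of higher genes among all calls depended on the scaling: it was 52.1% in WT and 50.2% in Il6-/- with TMM, and 66.5% and 65.0% with upper-quartile scaling, which shifted the median of all genes by 0.20 and 0.23 on the log2 scale. The median log2FC of the 9 genes was 0.81 in WT and 0.33 in Il6-/- recipients, and that of all genes was 0.09 in both. The 2 comparisons use different libraries, but each shares its libraries with the genotype comparisons. Reads on genes made up 60.2 to 62.2% of the count files on Day 3 and 52.5 to 56.7% on Day 5. This difference between the libraries cannot be told apart from the day, and its part in the changes was not tested.

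**Figure D4:**
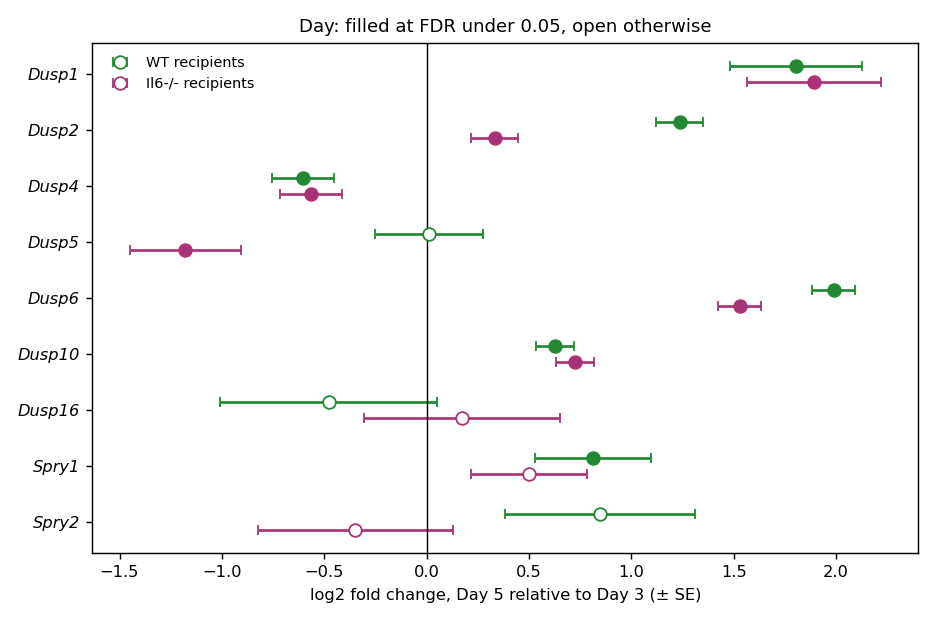
log2 fold change of Day 5 relative to Day 3 for each gene in WT (green) and Il6-/- (purple) recipients, with bars of 1 SE from the edgeR fit. Filled points passed an FDR of 0.05. Dusp1, Dusp2, Dusp6 and Dusp10 rose and Dusp4 fell in both genotypes, and Dusp5 fell in Il6-/- recipients.

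Dusp6 and Dusp1 rose in both genotypes. Dusp6 went from 28.0 ± 2.05 to 111 ± 13.6 CPM in WT (log2FC 1.99, SE 0.11, FDR = 1.3e-08), where it ranked 8 of 13570 genes by p, and from 32.3 ± 2.29 to 93.1 ± 7.94 CPM in the Il6-/- group (log2FC 1.53, SE 0.11, FDR = 2.3e-08). Dusp1 rose from 76.3 ± 25.1 to 267 ± 94.5 CPM in WT (log2FC 1.80, SE 0.32, FDR = 2.2e-04) and from 56.2 ± 18.5 to 209 ± 66.9 CPM in the Il6-/- group (log2FC 1.89, SE 0.33, FDR = 1.3e-04). For both genes the lowest Day 5 library lay above the highest Day 3 library of the same genotype. Dusp10 rose from 76.9 ± 7.66 to 119 ± 11.1 CPM in WT (log2FC 0.63, FDR = 4.5e-05) and from 79.1 ± 6.63 to 131 ± 3.67 CPM in the Il6-/- group (log2FC 0.73, FDR = 8.9e-06).

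Dusp2 rose from 46.2 ± 5.21 to 109 ± 13.05 CPM in WT (log2FC 1.24, SE 0.12, FDR = 4.1e-07). In Il6-/- recipients it rose from 55.5 ± 2.09 to 69.9 ± 9.02 CPM (log2FC 0.33, SE 0.11, FDR = 0.021). The smaller rise did not pass without replicate 1 or 2 of Il6-/- on Day 3 (FDR = 0.059 and 0.068), without replicate 1 or 3 of Il6-/- on Day 5 (FDR = 0.071 and 0.090), or with an offset for GC content (log2FC 0.18, FDR = 0.17). That the rise differed between the genotypes is the same test as the interaction above.

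Dusp4 fell, from 31.5 ± 1.85 to 20.7 ± 5.93 CPM in WT (log2FC −0.60, SE 0.15, FDR = 0.0035) and from 42.6 ± 3.52 to 28.8 ± 1.29 CPM in the Il6-/- group (log2FC −0.56, SE 0.15, FDR = 0.0046). With upper-quartile scaling the fall in Il6-/- recipients was −0.33 (FDR = 0.067). Dusp5 fell from 15.2 ± 1.10 to 6.69 ± 0.79 CPM in the Il6-/- group (log2FC −1.18, SE 0.27, FDR = 0.0015), where each Day 5 library lay below each Day 3 library. In WT recipients it was 10.2 ± 5.21 CPM on Day 3 and 10.4 ± 1.58 CPM on Day 5 (log2FC 0.01, SE 0.26, FDR = 0.98), and the interaction, which tests whether the changes differ, had an FDR of 0.085 in this fit. It passed with the replicate block, as given above, in DESeq2 (FDR = 0.031) and without the filter on low counts (FDR = 8.6e-04). FDRs without the filter were far lower than in the main fit for some other genes, as given below. Spry1 was higher on Day 5 in WT recipients, at 9.94 ± 1.04 against 5.63 ± 1.61 CPM (log2FC 0.81, SE 0.28, FDR = 0.024), a call that was lost without replicate 2 (FDR = 0.054) or 3 (FDR = 0.10) of WT on Day 3 or replicate 3 of WT on Day 5 (FDR = 0.067). In Il6-/- recipients it was 9.32 ± 3.87 against 6.60 ± 1.63 CPM (log2FC 0.50, SE 0.28, FDR = 0.14). Without replicate 2 of Il6-/- on Day 5, at 6.39 CPM, that difference was 0.72 (FDR = 0.041), and it did not pass in the other 11 fits without 1 library. Dusp16 and Spry2 did not pass in either genotype.

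Levels between genes were compared per length, as reads per kilobase of annotated exon and library size (RPKM), a scale that understates genes with many annotated isoforms such as Dusp10 and Dusp16. On Day 3 in WT recipients Dusp1 (23.0 RPKM) and Dusp2 (21.7 RPKM) came first with overlapping libraries, followed by Dusp10 (12.6 RPKM) and Dusp4 (10.9 RPKM), which overlapped each other, and then by Dusp6 (8.26 RPKM) and Dusp5 (4.12 RPKM). In Il6-/- recipients on Day 3 Dusp2 came first at 26.1 RPKM and lay apart from Dusp1 at 16.9 RPKM, whose libraries overlapped those of Dusp4 at 14.8 RPKM. On Day 5 the order was Dusp1, Dusp2, Dusp6, Dusp10, Dusp4, Dusp5 and Spry1 in both genotypes, at 80.3, 51.2, 32.7, 19.5, 7.18, 4.18 and 2.08 RPKM in WT and 62.7, 32.9, 27.5, 21.5, 10.02, 2.69 and 1.95 RPKM in Il6-/- recipients. Neighbours in that order lay apart, except Dusp1 and Dusp2 in WT, and Dusp2 and Dusp6, and Dusp5 and Spry1, in Il6-/- recipients. Dusp16 and Spry2 stayed at or below 0.22 RPKM on average in all 4 groups.

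**Figure D5:**
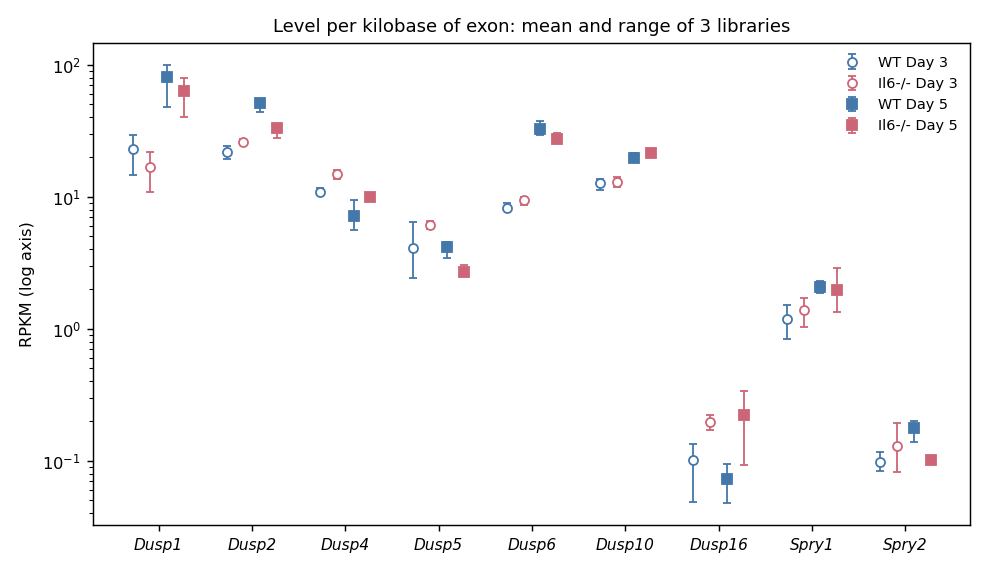
Level per length of each gene in the 4 groups, in RPKM on a log axis, with the mean of 3 libraries and a bar from the lowest to the highest. The means of Dusp1 and Dusp2 were 16.9 RPKM or more in each group, whereas Dusp16 and Spry2 had group means of at most 0.22 RPKM, and the Dusp4 points fell while the Dusp6 points rose from Day 3 to Day 5.

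Of 14 other dual-specificity phosphatases listed, 9 could be tested, and 1 passed on Day 3. The counts of this and the following lists stand against 13.7% of all genes that passed on Day 3 and 4.61% on Day 5. On Day 5, 1 had an unadjusted p under 0.05 and did not pass in edgeR. Dusp22, an atypical phosphatase that restrains T-cell receptor signaling, was 5.11, 4.99 and 5.65 CPM in WT and 12.5, 12.6 and 14.1 in Il6-/- libraries on Day 3 (log2FC 1.32, SE 0.21, FDR = 9.5e-04). On Day 5 it was 10.8, 5.45 and 6.96 CPM against 5.88, 5.45 and 5.62 CPM, and its interaction was −1.77 (SE 0.30, FDR = 0.0071). Of the other Sprouty and SPRED genes, 2 of 5 could be tested and did not pass in the genotype comparisons in edgeR, with 1 at an unadjusted p under 0.05 on Day 3.

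Upstream of ERK, 22 of 22 genes of the Ras-ERK cascade were tested. On Day 3, 2 were higher and 1 lower in Il6-/- recipients (median log2FC −0.05), and on Day 5, 2 were lower (median −0.01). Lat, the adaptor that links the T-cell receptor to Ras, was lower in Il6-/- than in WT recipients on Day 3, at 474 ± 41.3 against 653 ± 27.0 CPM (log2FC −0.46, FDR = 9.9e-04), and Map2k2, which encodes the ERK kinase MEK2, was lower on Day 5, at 82.6 ± 9.14 against 139 ± 26.1 CPM (log2FC −0.75, FDR = 0.0044). Both calls held in all 12 fits without 1 library. The calls of Braf (log2FC 0.41, FDR = 0.027) and Rras2 (log2FC 0.88, FDR = 0.037) on Day 3 were lost in 4 and 5 of these fits, with an FDR of at most 0.12 and 0.16.

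Of the 12 other negative regulators of Ras and of diacylglycerol, 1 was higher and 3 lower in Il6-/- recipients on Day 3 (median log2FC −0.17), and 1 was lower on Day 5 (median −0.02). Dgka, a kinase that removes diacylglycerol, was at 748 ± 42.3 CPM in WT and 463 ± 14.4 in the Il6-/- group on Day 3 (log2FC −0.69, FDR = 1.1e-04), and Rasa3, a GTPase-activating protein of Ras, at 162 ± 8.05 and 79.2 ± 12.5 CPM (log2FC −1.04, FDR = 2.5e-04). On Day 5 Dgka was at 797 ± 68.8 and 761 ± 70.2 CPM and Rasa3 at 137 ± 13.3 and 153 ± 31.3 CPM, and the interactions were 0.63 (FDR = 0.0097) and 1.19 (FDR = 0.0053). Dok2 was also lower on Day 3 (log2FC −0.46, FDR = 0.0068). Pebp1, which binds RAF, was higher (log2FC 0.30, FDR = 0.012), a call lost without replicate 2 of WT (FDR = 0.074) or of Il6-/- recipients (FDR = 0.058) on Day 3. Rasa1 was lower on Day 5 (log2FC −0.77, FDR = 0.024), a call lost in 4 of the 12 fits without 1 library (FDR up to 0.12).

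Downstream of ERK, the 18 genes listed were ERK-responsive transcripts and the transcription factors Srf, Elk1, Elk3 and Elk4, and 17 were tested. In Il6-/- recipients 2 were lower on Day 3 and 3 on Day 5, with none higher (median log2FC −0.11 on both days). Thus 2 and 3 of 17 passed, against 13.7% and 4.61% of all genes. Egr2 was 40.4 ± 5.68 CPM in WT and 23.5 ± 2.95 in the Il6-/- group on Day 3 (log2FC −0.78, FDR = 7.8e-04). Egr1 was 192 ± 34.5 and 140 ± 11.6 CPM on Day 3 (log2FC −0.46, FDR = 0.018), and 298 ± 15.95 and 199 ± 22.8 CPM on Day 5 (log2FC −0.58, FDR = 0.011). The Day 3 call of Egr1 was lost in 4 of the 12 fits without 1 library (FDR up to 0.12), and the Day 5 call without replicate 1 of WT or replicate 3 of Il6-/- recipients on Day 5 (FDR = 0.058 for each). Elk4, an ETS factor that works with serum response factor, was lower on Day 5 (log2FC −0.90, FDR = 0.010), a call lost without replicate 1 (FDR = 0.058) or 2 (FDR = 0.055) of WT on Day 5. Egr3 was lower on Day 5 (log2FC −0.52, FDR = 0.033), a call lost in 4 of the 12 fits (FDR up to 0.15).

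Between the days, 10 of these 17 transcripts were higher on Day 5 in WT recipients and none lower, against 29.5% and 27.1% of all genes. In Il6-/- recipients 10 were higher and 2, Myc and Etv4, lower, against 30.4% and 30.1% (median log2FC 0.63 and 0.51, against 0.09 for all genes). Egr3 rose from 10.9 ± 1.78 to 54.2 ± 2.89 CPM in WT (log2FC 2.32, FDR = 1.6e-08) and from 9.87 ± 1.73 to 37.8 ± 2.14 CPM in the Il6-/- group (log2FC 1.94, FDR = 3.3e-08). Of 10 transcripts induced by the T-cell receptor, 8 were higher and 1 lower on Day 5 in WT, and 6 higher and 2 lower in Il6-/- recipients. The 10 genes that define T cells were all higher on Day 5 in both genotypes, so that a rise of a T-cell transcript on the CPM scale was shared by genes outside the ERK pathway. The part of this shift in the rise of the phosphatases was not tested.

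Of 16 tested genes of the JNK and p38 pathway, 2 were higher and 2 lower in Il6-/- recipients on Day 3, and 1 was higher and 1 lower on Day 5. Mapkapk3, a kinase activated by p38, was higher on both days (log2FC 0.58, FDR = 8.3e-04 on Day 3, and 0.39, FDR = 0.025 on Day 5), and Mapk11, which encodes p38 beta, was lower on Day 3 (log2FC −0.47, FDR = 0.0064). The Day 5 call of Mapkapk3 was lost without replicate 1 (FDR = 0.12) or 2 (FDR = 0.076) of WT or replicate 2 of Il6-/- recipients on Day 5 (FDR = 0.087). Mapkapk2 (log2FC 0.45, FDR = 0.023) and Jun (log2FC −1.15, FDR = 0.030) passed on Day 3 and lost the call in 5 and 4 of the 12 fits without 1 library (FDR up to 0.080 and 0.14). Mapk14, which encodes p38 alpha, was lower on Day 5 (log2FC −0.93, FDR = 0.034) and lost the call in 5 of the 12 fits (FDR up to 0.17).

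Among the 10 transcripts induced by the T-cell receptor, 3 were higher and 1 lower in Il6-/- recipients on Day 3, and 1 was lower on Day 5. The costimulatory receptor Icos was lower on Day 3 (log2FC −1.04, FDR = 1.0e-05), and Tnfrsf4, which encodes OX40, was higher (log2FC 0.55, FDR = 0.0021), as was the nuclear receptor Nr4a3 (log2FC 1.00, FDR = 0.0072). Tnfrsf9 was higher on Day 3 (log2FC 0.48, FDR = 0.023) and Nfatc1 lower on Day 5 (log2FC −0.36, FDR = 0.044), and these calls were lost in 6 and 9 of the 12 fits without 1 library (FDR up to 0.073 and 0.18). Of the 12 handling and heat shock genes, 2 were higher and 1 lower on Day 3 and 2 higher on Day 5. Zfp36, which encodes an RNA-binding protein that shortens the life of cytokine transcripts, was 119, 192 and 144 CPM in WT and 69.8, 70.1 and 97.0 in Il6-/- libraries on Day 3 (log2FC −0.94, FDR = 0.0017). The chaperone genes Hsp90aa1 (log2FC 0.52, FDR = 0.0099) and Hspa8 (log2FC 0.42, FDR = 0.030) were higher on Day 3, and Dnajb1 (log2FC 0.64, FDR = 0.045) and Hspa1a (log2FC 3.46, FDR = 0.048) on Day 5. Hsp90aa1 lost the call without replicate 2 of WT on Day 3 (FDR = 0.061), and Hspa8, Dnajb1 and Hspa1a in 4, 9 and 8 of the 12 fits (FDR up to 0.15, 0.16 and 0.15).

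The genes whose log2 CPM followed that of a member most closely over the 12 libraries were found by Pearson's r among all genes tested, as a description, with no test, since the libraries fall into 2 days. Dusp2 was nearest to Lratd2 (r = 0.975) and Ndufa7 (r = 0.969), and Dusp6 to N4bp2l1 (r = 0.993) and Cyth3 (r = 0.990). Dusp1 was nearest to Atg14 (r = 0.989) and Ppp1r15a (r = 0.983), Dusp4 to Fpgs (r = 0.976) and Slc30a2 (r = 0.968), Dusp5 to Tmem245 (r = 0.941) and Srsf9 (r = 0.931), and Dusp10 to Maml2 (r = 0.983) and Wbp1 (r = 0.978). Spry1 was nearest to Zdhhc17 (r = 0.953), whereas the low counts of Dusp16 and Spry2 left r at 0.844 (Gm14295) and 0.887 (Selenos).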

How the data were processed

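Poly(A) RNA of 12 libraries was sequenced as single 50-base reads. The authors deposited 1 file of raw counts per library, keyed by gene symbol and made with Trim Galore 0.4.4, STAR 2.5.2a on GRCm39 and HTSeq 0.6.1p1 without regard to strand. Reads on genes made up 52.5 to 62.2% of each count file. The 5 closing rows that name no gene were left out: reads that were not unique gave 23.7 to 28.2%, reads on no feature 11.7 to 17.3% and ambiguous reads 1.96 to 2.28%. The total on genes was 16125947 to 26111657, where 3 counts correspond to 1.15e-05 to 1.86e-05% of a library, for counting error only.

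The counts were fitted in edgeR 4.0.16 (R 4.3.3) with TMM scaling, filterByExpr, 1 coefficient per group over all 12 libraries and the quasi-likelihood F test. P-values were adjusted by Benjamini-Hochberg over 13570 genes, and a gene passed at an FDR under 0.05. SE is the absolute log2FC divided by the square root of F. CPM used TMM-scaled library sizes, and RPKM the union of all exons of a gene in GENCODE vM39, which matched 32395 of the 40840 symbols. Groups came from the labels. The fit was tested on simulated data for the genotype comparison on Day 3 only. The simulated counts held no pairing of libraries, so this test does not bear on Day 5, the interaction or the block. Same-numbered libraries of the genotypes were compared by the correlation of their deviations from the group means. It was 0.243, 0.206 and 0.129 on Day 5, and 0.033, 0.060 and 0.032 on Day 3. What the numbers mark was not given in the labels. The main fit held no block on either day, and fits with the block are given as an alternative. The block was set within each day for the genotype comparisons and the interaction. For the comparisons between the days it joined the same number of both days.

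The 9 genes, the pathway and marker lists and the comparisons were chosen with earlier results of these data known. All 9 genes were named, and from each pathway list up to 4 genes with the smallest p among those that passed on Day 3 and on Day 5, the 2 genes most correlated with each of the 9, and genes with overlapping exons. Some genes that the rule and the marker lists hold are not reported here. Alternatives were other scalings, other filters on low counts, DESeq2 1.42.0, limma-voom (limma 3.58.1), an offset for GC content, the replicate number as a block, fits of the compared groups alone, and each library left out in turn. The authors also deposited a table of log2 CPM, which was not used here.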

Additional observations from a re-analysis of the deposited data

Results flagged for a closer look

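One result differed between the days by a test of the difference itself. The genotype difference of Dusp2, Il6-/- minus WT, changed by −0.90 on the log2 scale between Day 3 and Day 5 (SE 0.16, FDR = 0.0088, edgeR). Each of the 3 Il6-/- libraries lay above each WT library on Day 3 and below each on Day 5. The Day 3 difference itself did not pass (log2FC 0.26, FDR = 0.15, edgeR). Libraries were fully separated, in either direction, for 36.2% of all genes on Day 3 and 19.6% on Day 5. With 3 libraries per group, no library was tested for lying far from the others.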

How the results depend on the processing

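The Day 5 difference of Dusp2 passed in 12 of 12 fits without 1 library (log2FC −0.73 to −0.51) and in 10 of 10 other settings, and its interaction in 12 of 12 (−0.9993 to −0.74) and 9 of 9. Of 976 fits of single members, 911 kept direction and side of the threshold, 9 lost the call, 29 gained it and 27 turned direction, none of the last past the FDR. The number of members that passed on Day 3, 0 with edgeR, was 3 without a filter on low counts, 1 with DESeq2, 1 with limma-voom, 1 with the GC offset, 1 with the groups compared alone, 2 with the replicate block and 0 to 1 without 1 library. On Day 5, 1 passed, against 5 without the filter, 3 with DESeq2, 4 with the block and 1 to 2 without 1 library. In the interaction, 1 passed, against 2, 2, 3 and 1 to 2. Between the days, 6 passed in WT (5 to 6 without 1 library) and 6 in Il6-/- (5 to 7). Without the filter, some FDRs were far lower than in the main fit, so its calls carry less weight than those of other settings. The FDR was 9.1e-71 against 1.3e-04 for Dusp1 between the days in Il6-/- recipients. For Jun in the genotype comparison of Day 3 it was 1.3e-24 against 0.030. The cause of these differences, and of those in the counts of members, was not tested.

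On Day 3, where same-numbered libraries were hardly correlated, the block gave Dusp1 −0.44 (FDR = 0.0027) and Dusp4 0.44 (FDR = 0.038). In the interaction it gave Dusp2 −0.91 (FDR = 0.0033), Dusp5 −1.29 (FDR = 0.022) and Dusp6 −0.46 (FDR = 0.018). Between the days, the block joined libraries of the same number on Day 3 and Day 5, and it changed no call of a member. The count of all genes past the FDR was 1861 on Day 3 (942 to 2042 without 1 library), 626 on Day 5 (no filter 1397, DESeq2 1063, block 1592, groups alone 359, without 1 library 225 to 1169), and in the interaction 668 (1300, 1081, 1564 with the block, and 235 to 943). The share of calls that were higher in Il6-/- was 54.9% on Day 3, 27.5% on Day 5 and 36.5% in the interaction, against 44.8, 28.0 and 47.2% with upper-quartile and 39.3, 40.8 and 64.8% with no scaling.

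These members turned direction. Dusp10 on Day 3 was −0.014 with no scaling and −0.0355 to 0.10 without 1 library, and Spry2 there −0.0010 to 0.65. Spry1 on Day 5 was −0.48 to 0.14 without 1 library. In the interaction, Dusp4 was −0.0034 with the GC offset and −0.11 to 0.30 without 1 library, and Dusp1 −0.18 to 0.38. Dusp5 between the days in WT was −0.0229 with RLE scaling, −0.0185 with DESeq2, −0.0159 with the groups alone, −0.0575 without the filter, −0.049 with the GC offset and −0.26 to 0.50 without 1 library. In Il6-/-, Spry2 was −0.59 to 0.0572 and Dusp16 −0.26 to 0.55 without 1 library. Spry2 had 8 to 22 counts per library and Dusp16 9 to 57.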
